A study of Mus musculus with 11 samples.

Results

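Transcripts of 10 enzymes that remove superoxide, peroxides and reactive quinones were measured in left ventricle RNA, namely Sod1, Sod2, Sod3, Cat, Gpx1, Gpx3, Gpx4, Prdx3, Nqo1 and Txnrd1. The genes were chosen by name, with earlier results of these data known. Each symbol was matched to 1 Ensembl gene, giving 10 of the 25006 genes counted. All 10 passed edgeR's filter on low counts, which kept 14779 genes. The study sequenced 1 stranded mRNA library from each of 11 mice, to ask how loss of Vegfc, a lymphatic growth factor gene, from myeloid cells alters the heart before and after myocardial infarction (MI). Naive control mice (Vegfc fl/fl, n = 2) and naive Vegfc-deficient mice (Vegfc fl/fl ; LysMCre, n = 3) had no operation named in the labels. MI control mice (Vegfc fl/fl, n = 3) and MI Vegfc-deficient mice (Vegfc fl/fl ; LysMCre, n = 3) had a permanent ligation of the left anterior descending coronary artery, and infarcted left ventricle was taken 9 days later. All groups therefore carry the floxed allele by the genotype field, although the protocol text describes the controls as LysMCre mice. LysMCre expresses Cre recombinase from the Lyz2 locus, in macrophages and neutrophils, so the cardiomyocytes, fibroblasts and vessels of the deficient hearts keep the gene. The labels give no age or sex.

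Superoxide leaks from the mitochondrial respiratory chain and is made by NADPH oxidases. Superoxide dismutases turn it into hydrogen peroxide, and catalase, glutathione peroxidases and peroxiredoxins turn the peroxide into water. The last pair of families draw their electrons from glutathione or thioredoxin, which glutathione reductase and the thioredoxin reductases recharge with NADPH. The enzymes differ in where they work: the mitochondrial matrix holds Sod2 and Prdx3, the cytosol Sod1, Gpx1, Nqo1 and Txnrd1, the peroxisome catalase, membranes Gpx4, and the extracellular space Sod3 and Gpx3. NRF2, a transcription factor that KEAP1 holds back until oxidants release it, drives many of these genes through the antioxidant response element. Cardiac muscle is dense in mitochondria, and an infarct replaces muscle with inflammatory cells, fibroblasts and matrix.

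Total counts ran from 10824989 to 26782728 per library, with a median of 12814385 in the 5 naive and 20631678 in the 6 MI libraries. Values are given as CPM, the cpm measure of edgeR after TMM scaling of the library sizes. The TMM factors ran from 0.764 to 0.875 in the naive and from 1.105 to 1.194 in the MI libraries. This scaling therefore lowers MI values against naive ones, in CPM and in fold changes. The labels show no batch, and nothing in them says more of how the mice were paired or pooled. Lyz2, the locus of the Cre, was at 4538 to 5380.2 CPM in MI control and 12.4 to 1392 CPM in MI Vegfc-deficient libraries, but M149, a library labelled naive Vegfc-deficient, had 4565 CPM, above both naive controls (2121 and 2282 CPM) and against its label. M149 also had the highest sum of a list of lung genes, 1698 CPM, and the part of lung tissue in its Lyz2 level was not tested. Vegfc itself overlapped between the genotypes. The summed CPM of Y-linked genes was 152 to 195 in the naive libraries and 0 to 1.84 in the MI libraries, and Xist was at 0.624 to 11.8 against 188 to 403 CPM, the levels of male tissue before and of female tissue after MI, so sex and MI cannot be told apart in any MI result that follows. The heart label was borne out by its markers, since the 10 cardiomyocyte markers summed to 109666 to 144301 CPM in naive and 3521 to 33665 CPM in MI libraries.

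Promoter windows from RefSeq (GRCm38.p6, 250 bases before to 50 after each annotated start) were found for 9 of the 10 genes, all but Sod3. The windows were searched on both strands for the core letters of the antioxidant response element, TGACNNNGC, for the GC box GGGCGG and for the TATA letters TATAAA. The antioxidant response element letters were in the windows of 2 members, Sod1 and Txnrd1, and in those of 14% of all 27025 genes (12.4% of 32851 windows). A GC box was in at least 1 window of all 9 members with a window, and of 38.2% of all genes (35.7% of windows). The TATA letters were in those of 3 members and 15.7% of all genes (13.6% of windows). Shown are the pair with antioxidant response element letters and, of the genes that fell together after MI, Sod2, Prdx3 and Nqo1. Each is written 5′ to 3′ on the strand of its gene, with all matches in capitals: Sod1 at chr16:90220512-90220811 (plus strand), Sod2 at chr17:13007589-13007888 (plus strand), Prdx3 at chr19:60874489-60874788 (minus strand), Nqo1 at chr8:107403156-107403455 (minus strand) and Txnrd1, the second of 3 annotated starts, at chr10:82858956-82859255 (plus strand).
Sod1: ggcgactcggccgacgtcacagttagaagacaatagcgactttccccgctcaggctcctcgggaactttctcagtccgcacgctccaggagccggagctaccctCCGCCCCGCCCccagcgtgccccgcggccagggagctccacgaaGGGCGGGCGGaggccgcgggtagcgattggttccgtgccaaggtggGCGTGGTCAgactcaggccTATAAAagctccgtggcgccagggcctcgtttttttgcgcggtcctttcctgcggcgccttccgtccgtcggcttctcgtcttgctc
Sod2: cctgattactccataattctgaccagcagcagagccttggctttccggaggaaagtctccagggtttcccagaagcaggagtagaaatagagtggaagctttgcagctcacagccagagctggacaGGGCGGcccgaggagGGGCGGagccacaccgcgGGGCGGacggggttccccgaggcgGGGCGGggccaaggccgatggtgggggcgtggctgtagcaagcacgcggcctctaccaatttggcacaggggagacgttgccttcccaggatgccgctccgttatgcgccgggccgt
Prdx3: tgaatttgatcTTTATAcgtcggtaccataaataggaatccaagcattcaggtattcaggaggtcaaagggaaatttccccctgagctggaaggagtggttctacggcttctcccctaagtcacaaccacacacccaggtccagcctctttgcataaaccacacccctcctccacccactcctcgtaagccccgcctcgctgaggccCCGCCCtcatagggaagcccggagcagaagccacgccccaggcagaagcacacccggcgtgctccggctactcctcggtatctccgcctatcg
Nqo1: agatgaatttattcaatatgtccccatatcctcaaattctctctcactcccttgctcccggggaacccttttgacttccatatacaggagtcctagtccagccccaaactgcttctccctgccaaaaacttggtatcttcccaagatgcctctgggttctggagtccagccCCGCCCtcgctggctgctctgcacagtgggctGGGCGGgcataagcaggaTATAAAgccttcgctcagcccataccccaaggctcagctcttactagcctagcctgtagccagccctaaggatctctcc
Txnrd1: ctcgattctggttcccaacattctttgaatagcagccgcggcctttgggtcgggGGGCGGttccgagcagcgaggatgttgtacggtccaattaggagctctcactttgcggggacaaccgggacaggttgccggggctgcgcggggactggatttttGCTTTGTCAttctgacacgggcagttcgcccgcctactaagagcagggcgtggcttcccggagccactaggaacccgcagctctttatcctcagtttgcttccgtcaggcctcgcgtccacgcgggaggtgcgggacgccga
In Sod1 the antioxidant response element letters lay on the opposite strand from -56 to -48 relative to the start, and in Txnrd1 from -92 to -84, also on the opposite strand. Sod1 held 4 GC boxes, in 2 overlapping pairs, and Sod2 held 4, none of them overlapping. Nqo1 had no match to the antioxidant response element letters within this window. A match to letters is a description of the window and not a binding site.

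MI set the 10 enzymes apart by direction. In control hearts, 6 of 10 were lower after MI (Sod1, Sod2, Cat, Gpx4, Prdx3 and Nqo1), 1 was higher (Sod3), and Gpx1, Gpx3 and Txnrd1 did not pass an adjusted p of 0.05. In Vegfc-deficient hearts the same 6 were lower, 2 were higher (Sod3 and Gpx3), and Gpx1 and Txnrd1 did not pass. These counts stand against a large response of the whole transcriptome, in which 50.4% of the genes tested were called in control hearts (26.3% higher and 24.1% lower) and 57.6% in Vegfc-deficient hearts (30.0% higher and 27.7% lower). The median log2 fold change of the 10 genes was -0.99 in control and -0.97 in Vegfc-deficient hearts, and that of all genes tested was 0.13 and 0.097. In control hearts all 10 genes had no overlap between the naive and the MI libraries, as did 72.1% of the genes tested, and in Vegfc-deficient hearts 8 of 10 had none, against 64.3%. Fold changes are given on the log2 scale. They come from edgeR, whose quasi-likelihood model was fitted once to the 11 libraries, and p-values were adjusted by Benjamini-Hochberg over the 14779 genes. Gene positions are those of GENCODE M21 on GRCm38 (mm10).

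**Figure D1:**
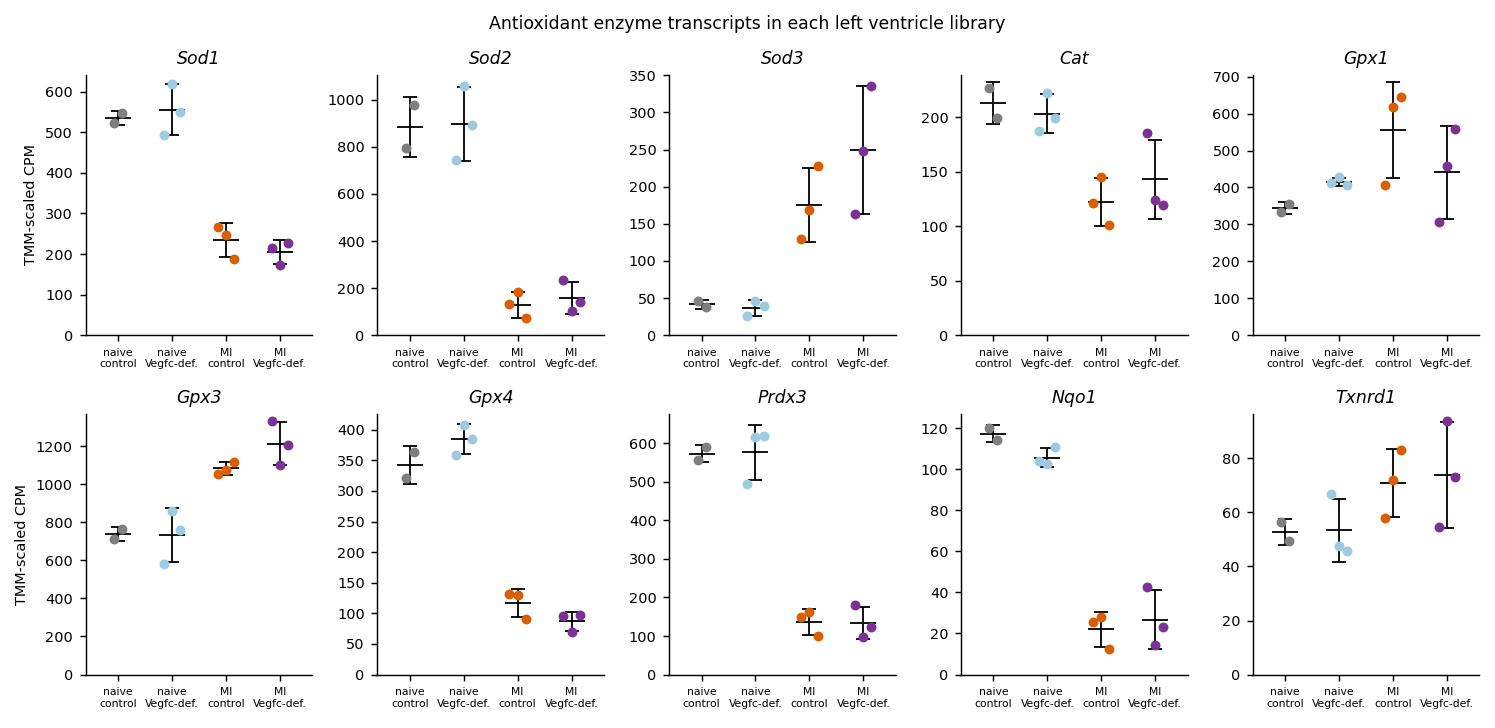
TMM-scaled CPM of each enzyme (vertical axis, from 0) in the 4 groups (horizontal axis), with 1 point per library, the mean as a horizontal bar and the SD as whiskers. Sod2, Prdx3 and Nqo1 sit far lower in all 6 MI libraries than in the 5 naive libraries, Sod3 sits higher, and the genotypes overlap after MI for every gene.

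Among the superoxide dismutases, the mitochondrial enzyme fell and the secreted one rose. Sod2, the manganese enzyme of the mitochondrial matrix (ENSMUSG00000006818), lies on chromosome 17 from 13006846 to 13040063, plus strand. The naive controls M44 and M45 had 793 and 976 CPM of Sod2, and the naive Vegfc-deficient mice M149, M150 and M34 had 744, 1058 and 893 CPM. The infarcted hearts had 134, 182 and 72.4 CPM when control (M006, M38 and M40) and 234, 101 and 139.9 CPM when Vegfc-deficient (M35, M900 and M913). Every naive library lay far above every MI library. After MI Sod2 fell by 2.77 on the log2 scale in control hearts (standard error 0.410, edgeR adjusted p = 0.000597), to 0.146 of the naive level, and the change in Vegfc-deficient hearts was -2.50 (standard error 0.384, edgeR adjusted p = 0.000408).

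Sod1, the copper and zinc enzyme of the cytosol (ENSMUSG00000022982), lies on chromosome 16 from 90220754 to 90226329, plus strand, and overlaps Scaf4 on the other strand without shared exon bases. In M44 and M45, the naive controls, Sod1 stood at 522 and 546 CPM, and in the naive Vegfc-deficient M149, M150 and M34 at 494, 619.6 and 551 CPM. MI samples gave 267, 248 and 189 CPM for M006, M38 and M40 (control) and 216, 172 and 228 CPM for M35, M900 and M913 (Vegfc-deficient). The naive and MI libraries did not overlap, and the fall was smaller than that of Sod2 in size, -1.19 (standard error 0.200, edgeR adjusted p = 0.00114) in control and -1.44 (standard error 0.185, edgeR adjusted p = 0.000163) in Vegfc-deficient hearts. The difference between the genes was not tested.

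Sod3, the secreted enzyme bound to the matrix around vessels and connective tissue (ENSMUSG00000072941), lies on chromosome 5 from 52363791 to 52371418, plus strand. Before infarction, Sod3 measured 46.3 and 37.7 CPM in M44 and M45 (naive controls) and 25.5, 46.7 and 39.5 CPM in M149, M150 and M34 (naive Vegfc-deficient). With MI, the controls M006, M38 and M40 had 129, 168 and 228 CPM, and the Vegfc-deficient M35, M900 and M913 had 164, 249 and 336 CPM. Each MI library lay above each naive library, and the order among MI libraries did not follow genotype. Sod3 was 4.17-fold higher after MI in control hearts, a log2 change of 2.06 (standard error 0.368, edgeR adjusted p = 0.00147), and 6.70-fold higher in Vegfc-deficient hearts, a log2 change of 2.75 (standard error 0.324, edgeR adjusted p = 0.000109). Without the doubted library M149, which had the lowest naive value, the latter log2 change was 2.53 (edgeR adjusted p = 0.000389). The fibroblast list moved the same way, from 5416 to 6968 CPM summed over 10 markers in naive libraries to 33298 to 53397 in MI libraries, and its part in the Sod3 result was not tested.

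The mix of superoxide dismutase transcripts shifted with these changes. As a share of the CPM per kilobase of the 3 genes, with merged exons as the length, Sod3 took 4.83 ± 1.02% in naive control (SD, n = 2), 4.10 ± 0.681% in naive Vegfc-deficient, 39.5 ± 11.7% in MI control and 49.1 ± 11.3% in MI Vegfc-deficient libraries (SD, n = 3 each). The share of Sod2 was 37.6 ± 3.04%, 37.3 ± 1.20%, 10.8 ± 4.19% and 12.1 ± 6.15% in the same order of groups. The share of Sod1 was 57.5 ± 1.98% and 58.5 ± 1.83% in the naive and 49.7 ± 8.65% and 38.8 ± 5.12% in the MI groups. The sizes of these shares depend on the length taken, because the merged exons of Sod1 (3970 bases) include a retained intron and its longest protein-coding transcript has 641 bases. With the longest protein-coding transcript as the length, chosen after the data were seen, Sod1 took 83.7 ± 1.27% and 84.2 ± 0.907% of the naive and 83.9 ± 3.91% and 77.4 ± 2.38% of the MI transcripts. On that scale Sod3 went from 1.14 ± 0.219% and 0.955 ± 0.176% to 11.2 ± 4.82% and 16.1 ± 4.97%, and Sod2 from 15.2 ± 1.48% and 14.8 ± 0.802% to 4.96 ± 1.68% and 6.50 ± 2.60%. The share of Sod3 was higher, and that of Sod2 lower, in every MI library than in every naive library under both lengths. Counting on genes rather than transcripts cannot tell which Sod1 isoform was read.

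**Figure D2:**
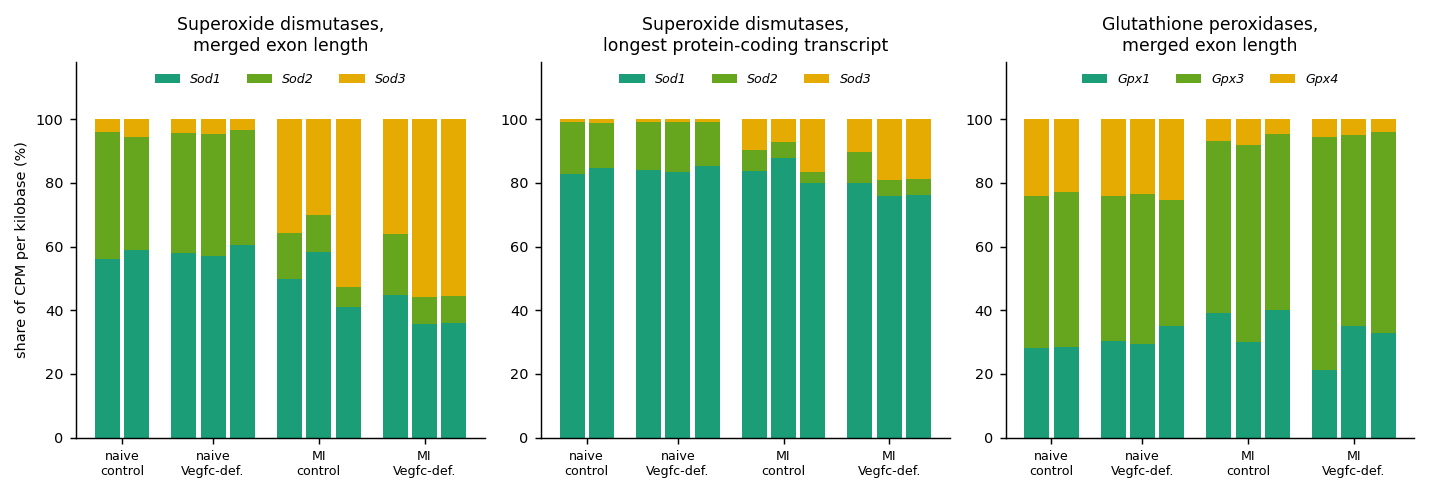
Share of the CPM per kilobase of the listed genes of each family (vertical axis, percent) taken by each of them in each library (bars, grouped by genotype and MI on the horizontal axis), for the superoxide dismutases under both lengths and for the glutathione peroxidases Gpx1, Gpx3 and Gpx4. Sod3 and Gpx3 widen and Sod2 and Gpx4 narrow in all 6 MI libraries, and the share of Sod1 depends on the length.

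Of the 3 glutathione peroxidases, Gpx4 fell in both genotypes, Gpx3 rose in Vegfc-deficient hearts and Gpx1 did not pass in either. Gpx4, which reduces lipid hydroperoxides inside membranes and guards against ferroptosis (ENSMUSG00000075706), lies on chromosome 10 from 80047166 to 80056439, plus strand. The naive controls M44 and M45 had 321 and 364 CPM of Gpx4, and the naive Vegfc-deficient mice M149, M150 and M34 had 359, 408 and 385 CPM. The infarcted hearts had 131, 129 and 90.3 CPM when control (M006, M38 and M40) and 95.4, 68.7 and 96.5 CPM when Vegfc-deficient (M35, M900 and M913). The lowest naive value lay above the highest MI value. The log2 change was -1.55 (standard error 0.207, edgeR adjusted p = 0.000398) in control and -2.15 (standard error 0.195, edgeR adjusted p = 4.17e-05) in Vegfc-deficient hearts. Gpx4 has 1 named pseudogene in the annotation, which was not analysed here.

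Gpx3, the glutathione peroxidase secreted into plasma (ENSMUSG00000018339), lies on chromosome 11 from 54902453 to 54910377, plus strand. In M44 and M45, the naive controls, Gpx3 stood at 710.2 and 762 CPM, and in the naive Vegfc-deficient M149, M150 and M34 at 582, 860.4 and 759 CPM. MI samples gave 1055, 1074 and 1118 CPM for M006, M38 and M40 (control) and 1332, 1103 and 1205 CPM for M35, M900 and M913 (Vegfc-deficient). All 6 MI libraries lay above all 5 naive libraries. The log2 change was 0.73 (standard error 0.192, edgeR adjusted p = 0.00852) in Vegfc-deficient hearts, and in control hearts it was 0.56 (standard error 0.217, edgeR adjusted p = 0.0538), just outside the threshold. In control hearts it passed without M149 (adjusted p = 0.0401), without M35 (adjusted p = 0.0488), with the length trend removed (adjusted p = 0.0121), with the DESeq2 Wald test (adjusted p = 0.022) and with limma-voom (adjusted p = 0.0261). It did not pass there in the other alternatives, such as with the GC trend removed (log2 change 0.43, edgeR adjusted p = 0.147) or without any other library. Without M149 the log2 change in Vegfc-deficient hearts was 0.58 (edgeR adjusted p = 0.0306).

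Gpx1, the selenium enzyme of the cytosol and mitochondria (ENSMUSG00000063856), lies on chromosome 9 from 108338903 to 108340343, plus strand. Before infarction, Gpx1 measured 334 and 357 CPM in M44 and M45 (naive controls) and 413, 427 and 406 CPM in M149, M150 and M34 (naive Vegfc-deficient). With MI, the controls M006, M38 and M40 had 407, 618 and 644 CPM, and the Vegfc-deficient M35, M900 and M913 had 306, 457 and 558 CPM. The Vegfc-deficient library M35 was the lowest of all 11, and M40 and M38 were the highest. In control hearts the log2 change was 0.69 (standard error 0.273, edgeR adjusted p = 0.0565), and in Vegfc-deficient hearts, where the naive and MI libraries overlapped, it was 0.085 (standard error 0.239, edgeR adjusted p = 0.775). These values moved with a trend on merged exon length: with that trend removed, they were 1.05 (edgeR adjusted p = 0.0103) and 0.70 (adjusted p = 0.0294), and both passed. In control hearts Gpx1 also passed with the DESeq2 Wald test (adjusted p = 0.0452), with limma-voom (adjusted p = 0.0321), without M006 (0.87, edgeR adjusted p = 0.0207) and without M35 (adjusted p = 0.0257). It did not pass there in the other alternatives, such as with the GC trend removed (0.51, edgeR adjusted p = 0.0991) or without any other library. The 10 macrophage markers summed to 1836 to 2617 CPM in naive and 2453 to 6085 CPM in MI libraries, with M35 the lowest of the MI libraries in both Gpx1 and this sum, and their part in the result was not tested.

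Shares were taken among Gpx1, Gpx3 and Gpx4 only, and not of the whole family. The members left out summed to 164 to 254 CPM in naive and 286 to 446 CPM in MI libraries. The share of CPM per kilobase taken by Gpx4 went from 23.5 ± 0.707% and 24.4 ± 1.01% in naive control and naive Vegfc-deficient libraries to 6.54 ± 1.72% and 4.90 ± 0.707% in the MI groups (SD, n = 2 and 3 naive and 3 and 3 MI libraries, merged exons). That of Gpx3 went from 48.1 ± 0.424% and 43.9 ± 4.03% to 57.0 ± 4.26% and 65.4 ± 6.98%, and that of Gpx1 was 28.4 ± 0.354% and 31.7 ± 3.02% before and 36.4 ± 5.57% and 29.7 ± 7.44% after MI. Of the other family members, Gpx7, an endoplasmic reticulum enzyme, rose in both genotypes, with log2 changes in control and Vegfc-deficient hearts of 1.37 and 1.30 (edgeR adjusted p = 0.00211 and 0.000907). Gpx8, another enzyme of that compartment, rose in control hearts only by the threshold, at 0.89 and 0.57 (edgeR adjusted p = 0.0185 and 0.0554). Gpx2, Gpx5 and Gpx6 did not pass the filter on low counts.

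Cat, the catalase of peroxisomes (ENSMUSG00000027187), lies on chromosome 2 from 103453849 to 103485160, minus strand. The naive controls M44 and M45 had 227 and 199.7 CPM of Cat, and the naive Vegfc-deficient mice M149, M150 and M34 had 188, 222 and 199.6 CPM. The infarcted hearts had 121, 145 and 101 CPM when control (M006, M38 and M40) and 185, 124 and 119.7 CPM when Vegfc-deficient (M35, M900 and M913). The naive and MI libraries did not overlap after TMM scaling, although MI Vegfc-deficient M35 (185 CPM) lay just below naive M149 (188 CPM). Before scaling, Cat had 3149 of 14580756 counts in M35 and 1915 of 11746936 in M149, the larger part in M35. The lack of overlap thus rests on the scaling, which also lowers the log2 changes given next. The log2 change was -0.80 (standard error 0.217, edgeR adjusted p = 0.0115) in control and -0.51 (standard error 0.197, edgeR adjusted p = 0.0466) in Vegfc-deficient hearts. The call in Vegfc-deficient hearts was lost without any 1 of 8 libraries, both naive controls among them, with edgeR adjusted p-values up to 0.164, with the length trend removed (adjusted p = 0.18), with no filter on low counts (adjusted p = 0.0701) and with only the compared groups in the fit (adjusted p = 0.0919). In control hearts it was lost without naive control M44 (log2 change -0.70, edgeR adjusted p = 0.0825).

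Prdx3, the peroxiredoxin of the mitochondrial matrix (ENSMUSG00000024997), lies on chromosome 19 from 60864051 to 60874556, minus strand. In M44 and M45, the naive controls, Prdx3 stood at 558 and 589 CPM, and in the naive Vegfc-deficient M149, M150 and M34 at 494, 616 and 620.1 CPM. MI samples gave 148, 161 and 99.4 CPM for M006, M38 and M40 (control) and 180.2, 96.7 and 124 CPM for M35, M900 and M913 (Vegfc-deficient). Every MI library was below every naive library. The log2 change was -2.07 (standard error 0.277, edgeR adjusted p = 0.000405) in control and -2.11 (standard error 0.260, edgeR adjusted p = 0.000131) in Vegfc-deficient hearts, and the interval of their difference was -0.86 to 0.80.

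Nqo1, a cytosolic quinone reductase and a standard NRF2 target (ENSMUSG00000003849), lies on chromosome 8 from 107388225 to 107403206, minus strand. Before infarction, Nqo1 measured 120.2 and 114 CPM in M44 and M45 (naive controls) and 104, 102 and 111 CPM in M149, M150 and M34 (naive Vegfc-deficient). With MI, the controls M006, M38 and M40 had 25.6, 27.9 and 12.4 CPM, and the Vegfc-deficient M35, M900 and M913 had 42.5, 14.5 and 23.2 CPM. M35 was the highest and M40 the lowest of the MI libraries. The change was -2.42 (standard error 0.405, edgeR adjusted p = 0.0011) in control and -1.99 (standard error 0.375, edgeR adjusted p = 0.00136) in Vegfc-deficient hearts, on the log2 scale.

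Txnrd1, the cytosolic thioredoxin reductase and also an NRF2 target (ENSMUSG00000020250), lies on chromosome 10 from 82833951 to 82897712, plus strand, and holds Eid3 on the same strand without shared exon bases. The naive controls M44 and M45 had 56.3 and 49.5 CPM of Txnrd1, and the naive Vegfc-deficient mice M149, M150 and M34 had 66.7, 47.6 and 45.7 CPM. The infarcted hearts had 57.9, 72.1 and 83.0 CPM when control (M006, M38 and M40) and 54.5, 93.9 and 73.2 CPM when Vegfc-deficient (M35, M900 and M913). In control hearts the MI libraries lay above the naive ones, and in Vegfc-deficient hearts M35 fell below M149. The log2 change was 0.43 (standard error 0.250, edgeR adjusted p = 0.178) in control and 0.47 (standard error 0.222, edgeR adjusted p = 0.0918) in Vegfc-deficient hearts. Without M149 the latter was 0.66 and passed (edgeR adjusted p = 0.0334), and without M35 it was 0.65 (adjusted p = 0.0244), and it also passed with limma-voom (adjusted p = 0.013). Other alternatives brought no pass for Txnrd1, such as the DESeq2 Wald test (0.41, adjusted p = 0.135) and removal of the length trend (0.19, edgeR adjusted p = 0.451). Its mitochondrial relative Txnrd2 fell in control and Vegfc-deficient hearts, by log2 changes of -1.35 and -1.40 (edgeR adjusted p = 0.000186 and 4.69e-05).

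The falls were set beside the muscle content of the libraries. In bulk tissue, fewer cells of a type and less RNA per cell cannot be told apart. All 10 cardiomyocyte markers fell in both genotypes, with a median log2 change of -3.13 in control and -2.78 in Vegfc-deficient hearts. All 12 genes of a respiratory chain list fell as well, with medians of -2.62 and -2.18. In control hearts the changes of Sod2 and Nqo1 lay within the range of the respiratory chain genes (-2.92 to -2.19), and those of Prdx3, Gpx4, Sod1 and Cat were smaller than all of these. In Vegfc-deficient hearts Sod2, Prdx3, Nqo1 and Gpx4 lay within that range (-2.86 to -1.66), and Sod1 and Cat were smaller. From naive to MI libraries the cardiomyocyte sum fell along with all 6 enzymes, and its part in their falls was not tested. Among the MI libraries, M35 had the highest cardiomyocyte sum and the highest Sod2, Cat, Prdx3 and Nqo1, but not the highest Sod1 or Gpx4.

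A ratio within each library, computed after these values were seen and given as a description, put the members on a mitochondrial scale. Each member's CPM was divided by the summed CPM of the 12 respiratory chain genes. For Sod2 this ratio ranged from 2.64 to 3.17% in naive and from 2.24 to 2.73% in MI libraries, with overlap, although its own CPM fell. The ratio of Nqo1 ranged from 0.307 to 0.431% in naive and from 0.384 to 0.495% in MI libraries, again with overlap, and that of Prdx3 from 1.84 to 2.09% in naive and from 2.10 to 3.07% in MI libraries, just without. For Gpx4 it ranged from 1.07 to 1.49% in naive and from 1.11 to 2.79% in MI libraries, with overlap. The ratio of Sod1 was higher in every MI library, ranging from 1.71 to 2.05% in naive and from 2.51 to 5.83% in MI libraries, as was that of Cat, from 0.624 to 0.779% in naive and from 2.05 to 3.31% in MI libraries. Every MI library was also higher in the ratios of Gpx1, from 1.11 to 1.71% in naive and from 3.57 to 19.9% in MI libraries, Gpx3, from 2.36 to 2.58% in naive and from 15.2 to 34.5% in MI libraries, Sod3, from 0.106 to 0.154% in naive and from 1.91 to 7.03% in MI libraries, and Txnrd1, from 0.143 to 0.277% in naive and from 0.634 to 2.56% in MI libraries. Among the 6 MI libraries, the order of Sod2 (M35, M38, M913, M006, M900, M40, from the highest) was also the order of the respiratory chain sum, which ran from 8591 CPM in M35 to 3239 CPM in M40. M35 was also the highest and M40 the lowest in the cardiomyocyte sum, at 33665 and 3521 CPM. Ratios to the cardiomyocyte sum were less even. They overlapped for Sod2 (0.658 to 0.736% in naive and 0.696 to 2.06% in MI libraries) and Gpx4 (0.266 to 0.327% and 0.283 to 2.56%). For all other members they were higher in every MI library. Nqo1 had 0.071 to 0.0998% in naive and 0.124 to 0.353% in MI libraries, and Prdx3 0.427 to 0.485% and 0.535 to 2.82%. Sod1 had 0.412 to 0.451% and 0.642 to 5.36%, and Cat 0.151 to 0.188% and 0.55 to 2.87%. Both sums were themselves lower in every MI library, so a gene with unchanged CPM would have higher ratios after MI. The median log2 change of all genes tested was 0.13 in control and 0.097 in Vegfc-deficient hearts. The share of all genes with a higher ratio in every MI library was not computed. Values within a library share its depth and scaling.

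**Figure D3:**
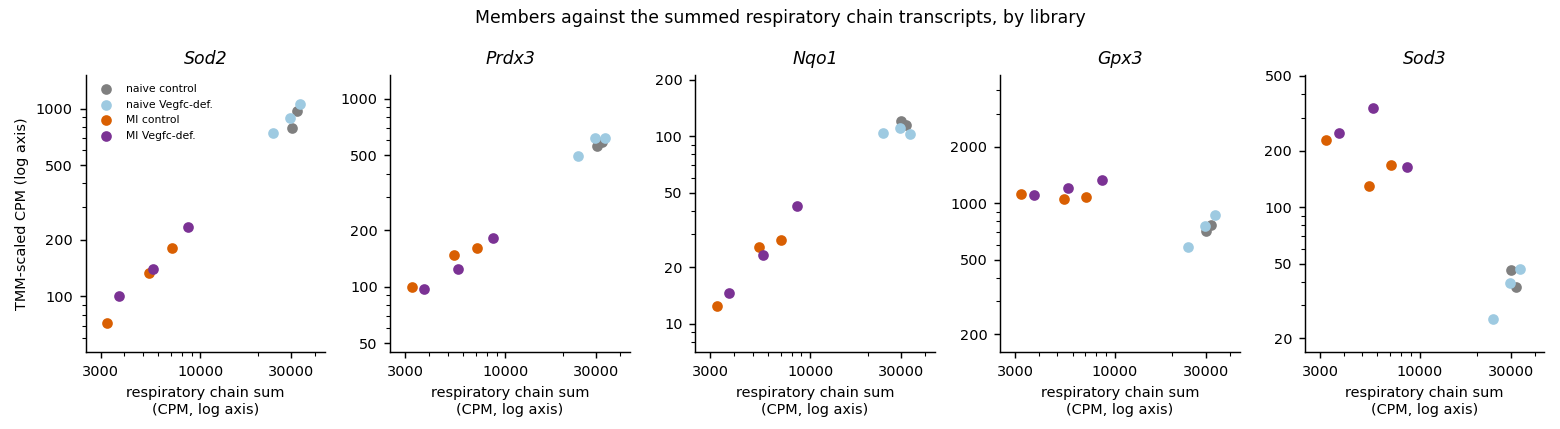
TMM-scaled CPM of 5 members (vertical log axis) against the summed CPM of 12 respiratory chain genes (horizontal log axis), with 1 point per library coloured by group. Sod2, Prdx3 and Nqo1 fall along with the sum from the naive to the MI libraries and among the MI libraries, while Gpx3 and Sod3 are higher in the MI than in the naive libraries.

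The partners of these enzymes were read from lists chosen with earlier results of these data known, so their counts are descriptions. Each count of a list, here and in the paragraphs below, stands beside the shares of all genes tested. These were 26.3% higher and 24.1% lower in control and 30.0% higher and 27.7% lower in Vegfc-deficient hearts. In the sentences that follow, each pair of log2 changes gives MI against naive in control and then in Vegfc-deficient hearts. Of the thioredoxin system, 6 of 9 genes fell in control and 9 of 9 in Vegfc-deficient hearts, and none rose. The mitochondrial thioredoxin Txn2, which recharges Prdx3, changed by -1.55 and -1.62 (edgeR adjusted p = 0.000381 and 0.000103). The iron-sulfur glutaredoxins Glrx5 and Glrx3 changed by -1.51 and -2.03 (edgeR adjusted p = 0.000553 and 5.9e-05) and by -1.14 and -1.41 (edgeR adjusted p = 0.00144 and 0.000187). Cytosolic Txn1, the substrate of Txnrd1, had -0.30 and -0.58 (edgeR adjusted p = 0.191 and 0.0117) and so fell in Vegfc-deficient hearts.

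The list of the other peroxiredoxins, Srxn1 and the sestrins split in both directions. It had 3 higher and 3 lower of 9 tested in control and 3 higher and 5 lower of 9 tested in Vegfc-deficient hearts. Prdx2, Prdx5 and Prdx6 fell in both genotypes, Prdx2 at -1.43 and -1.37 (edgeR adjusted p = 0.000326 and 0.000119), Prdx5 at -1.33 and -1.97 (edgeR adjusted p = 0.00294 and 0.000169) and Prdx6 at -1.56 and -1.40 (edgeR adjusted p = 0.000761 and 0.000503). The stress-induced sestrins Sesn2 and Sesn3 rose, by 1.48 and 1.70 (edgeR adjusted p = 0.021 and 0.00482) and by 1.57 and 1.74 (edgeR adjusted p = 0.00132 and 0.000218). Prdx1, a cytosolic peroxiredoxin and NRF2 target, had -0.28 and -0.67 (edgeR adjusted p = 0.3 and 0.0148). Srxn1, which repairs overoxidised peroxiredoxins, did not pass in either, at -0.14 and 0.22 (edgeR adjusted p = 0.539 and 0.269).

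On the supply side, 3 of the 5 mitochondrial NADPH genes of the list (Idh2, Me3 and Nnt) fell in each genotype, while Me2 had 0.35 and 0.46 (edgeR adjusted p = 0.0546 and 0.00857) and Mthfd2 0.13 and 0.50 (edgeR adjusted p = 0.855 and 0.386) for log2 changes in control and Vegfc-deficient hearts. Idh2, a matrix isocitrate dehydrogenase, changed by -3.14 and -2.58 (edgeR adjusted p = 0.000389 and 0.000359), the malic enzyme Me3 by -2.88 and -2.52 (edgeR adjusted p = 0.00301 and 0.00324) and the transhydrogenase Nnt by -2.74 and -2.03 (edgeR adjusted p = 0.00138 and 0.00313). The cytosolic malic enzyme Me1 also fell, at -1.55 and -1.71 (edgeR adjusted p = 0.000556 and 0.000126). In all, the NADPH list had 1 higher and 4 lower of 11 tested in control and 3 higher and 4 lower of 11 tested in Vegfc-deficient hearts. The list of glutathione supply had 0 higher and 2 lower of 8 tested and 1 higher and 1 lower of 8 tested. Gclc, the catalytic subunit of the first step of glutathione synthesis, had 0.047 and 0.43 (edgeR adjusted p = 0.82 and 0.0235), and its partner subunit Gclm 0.14 and 0.23 (edgeR adjusted p = 0.556 and 0.242). Glutathione reductase, Gsr, had 0.17 and 0.43 (edgeR adjusted p = 0.511 and 0.0693). Gss, which completes the synthesis, fell in both genotypes, at -0.47 and -0.48 (edgeR adjusted p = 0.0318 and 0.0164). Slc7a11, the cystine carrier, was at 0.915 to 3.16 CPM in MI control and 1.12 to 21.9 CPM in MI Vegfc-deficient libraries and did not pass (0.59 and 2.51, edgeR adjusted p = 0.754 and 0.109).

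NRF2 targets other than the members went both ways, with 4 higher and 8 lower of 19 tested in control and 6 higher and 10 lower of 19 tested in Vegfc-deficient hearts. Of 8 glutathione transferases listed, 6 were tested, and 4 of these fell in control and 5 in Vegfc-deficient hearts. Among those that fell in both genotypes were Gsta4 at -2.94 and -2.09 (edgeR adjusted p = 0.000431 and 0.000887), Gstm1 at -2.16 and -1.51 (edgeR adjusted p = 0.000463 and 0.00106) and Gstp1 at -1.70 and -1.09 (edgeR adjusted p = 0.000513 and 0.0021). The exporter gene Abcc3 rose, by 1.86 and 2.09 (edgeR adjusted p = 0.00036 and 5.76e-05). Hmox1, heme oxygenase, had 0.88 and 1.70 (edgeR adjusted p = 0.0973 and 0.00304) and rose in Vegfc-deficient hearts. The transcript of NRF2 itself, Nfe2l2, did not pass in either genotype, at -0.22 and 0.11 (edgeR adjusted p = 0.349 and 0.59). Its inhibitor Keap1 had -0.26 and -0.41 (edgeR adjusted p = 0.182 and 0.026), and the ligase subunits that work with KEAP1 fell, Cul3 at -0.68 and -0.89 (edgeR adjusted p = 0.00566 and 0.00058) and Rbx1 at -0.73 and -1.11 (edgeR adjusted p = 0.00117 and 6.12e-05). Nfe2l1, a relative of NRF2, fell, at -0.86 and -0.61 (edgeR adjusted p = 0.00156 and 0.00428). The list of NRF2 regulators had 0 higher and 4 lower of 11 tested in control and 3 higher and 4 lower of 11 tested in Vegfc-deficient hearts.

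Among sources of oxidants, the oxidase Nox4 rose and a mitochondrial source fell. Nox4, an NADPH oxidase that makes hydrogen peroxide, was at 1.96 to 5.81 CPM in naive and 64.0 to 93.7 CPM in MI libraries, with log2 changes of 4.87 and 4.41 (edgeR adjusted p = 9.02e-05 and 1.99e-05). Cybb, the catalytic subunit of the phagocyte oxidase, had 1.61 and 1.57 (edgeR adjusted p = 0.0628 and 0.0353) and passed in Vegfc-deficient hearts. Rac2, a GTPase that activates that oxidase, rose by 1.65 and 1.25 (edgeR adjusted p = 0.00826 and 0.0126), and the vascular amine oxidase Aoc3 by 1.35 and 1.71 (edgeR adjusted p = 0.00134 and 0.000119). Maob, the monoamine oxidase of the mitochondrial outer membrane, fell, at -2.29 and -1.59 (edgeR adjusted p = 0.000273 and 0.000489). The list had 6 higher and 4 lower of 16 tested in control and 7 higher and 1 lower of 16 tested in Vegfc-deficient hearts. Mpo, the neutrophil peroxidase, was at 0 CPM in both naive controls, 0.431 to 18.5 CPM in MI control and 0.373 to 0.470 CPM in MI Vegfc-deficient libraries. The neutrophil markers summed to 20.4 to 114 CPM in naive and 37.1 to 378 CPM in MI libraries, and their part in the oxidase results was not tested.

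Selenium and ferroptosis genes bear on the selenoenzymes Gpx1, Gpx3, Gpx4 and Txnrd1. The selenium list had 4 higher and 4 lower of 20 tested in control and 5 higher and 6 lower of 20 tested in Vegfc-deficient hearts. Pstk, a kinase of selenocysteine synthesis, fell, at -1.66 and -2.22 (edgeR adjusted p = 0.000992 and 9.97e-05). Lrp8, a receptor for selenoprotein P, rose by 1.88 and 2.32 (edgeR adjusted p = 0.00495 and 0.000619), and the deiodinases Dio3 and Dio2, which are selenoenzymes too, by 2.40 and 3.68 (edgeR adjusted p = 0.00299 and 0.000178) and by 1.92 and 1.63 (edgeR adjusted p = 0.0109 and 0.00871). The ferroptosis list had 1 higher and 4 lower of 10 tested in control and 2 higher and 4 lower of 10 tested in Vegfc-deficient hearts. Tfrc, the transferrin receptor, fell, at -3.11 and -3.39 (edgeR adjusted p = 0.000879 and 0.000261). Aifm2 and Dhodh, which protect membranes beside Gpx4, fell, at -0.42 and -0.57 (edgeR adjusted p = 0.0387 and 0.00533) and at -0.76 and -1.07 (edgeR adjusted p = 0.00368 and 0.000234). Ptgs2, a prostaglandin synthase, rose by 3.02 and 3.04 (edgeR adjusted p = 0.016 and 0.00514). The copper genes that serve Sod1 and Sod3 had 0 higher and 0 lower of 4 tested in control and 1 higher and 2 lower of 4 tested in Vegfc-deficient hearts, and Ccs, the copper chaperone of Sod1, had -0.17 and -0.46 (edgeR adjusted p = 0.408 and 0.0261).

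**Figure D4:**
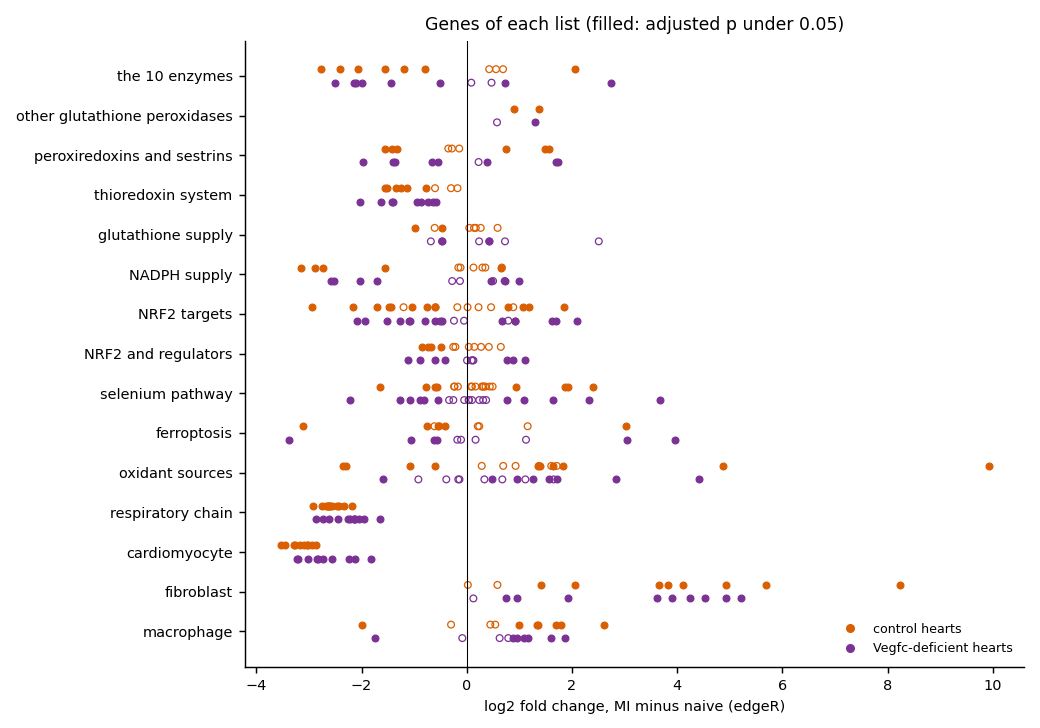
Log2 fold change between MI and naive hearts (horizontal axis) of each tested gene in 15 lists (rows), in control (orange) and Vegfc-deficient hearts (purple), filled where the adjusted p was under 0.05. The 10 enzymes spread over both directions, while the respiratory chain and cardiomyocyte genes all lie on the low side. The control point farthest to the right is Mpo, which was at 0 in both naive controls, so its fitted value depends on the prior count and is no estimate of a fold.

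The genotype comparison asked whether myeloid loss of Vegfc altered these enzymes in the infarcted heart. None of the 10 passed in edgeR after Benjamini-Hochberg adjustment (0 of 10, against 0.00% of all genes tested), 1 had an unadjusted p under 0.05 (against 7.94%), and 0 also passed with DESeq2 and limma-voom. No member had its MI Vegfc-deficient libraries wholly above or below the MI control libraries, as 12.1% of all genes had. The member with the smallest p was Gpx4, at 86.9 ± 15.7 CPM (SD, n = 3) in Vegfc-deficient and 117 ± 23.1 CPM (SD, n = 3) in control hearts. Its log2 change was -0.43 (standard error 0.188, edgeR adjusted p = 0.626), with a 95% interval of -0.845 to -0.0123. MI control M40 (90.3 CPM) lay below the Vegfc-deficient libraries M35 and M913. Across all genes the change between the MI groups rose with gene length (Spearman's rho 0.317 over 14779 genes, which are not independent). With the trend on merged exon length removed, the change of Gpx4, whose merged exons have 1724 bases, was -0.27 (edgeR adjusted p = 0.832).

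The intervals show how large a genotype effect these 6 hearts leave possible. The log2 change with its 95% interval was -0.19 (-0.596 to 0.209) for Sod1, 0.22 (-0.213 to 0.658) for Cat and 0.16 (-0.259 to 0.588) for Gpx3. For Sod2 it was 0.29 (-0.514 to 1.10), for Prdx3 -0.027 (-0.580 to 0.527) and for Nqo1 0.28 (-0.530 to 1.09). Sod3 was at 249 ± 85.8 CPM (SD, n = 3) in Vegfc-deficient and 175 ± 49.6 CPM (SD, n = 3) in control hearts, a log2 change of 0.51 (-0.160 to 1.18). The change was -0.34 (-0.867 to 0.193) for Gpx1 and 0.057 (-0.431 to 0.544) for Txnrd1. These results do not show that the genotypes are alike. Removing the MI Vegfc-deficient library M35, which had the highest cardiomyocyte sum, moved the change of Nqo1 to -0.22, and removing M900 moved it to 0.60. Among the pathway lists, the smallest genotype p in MI hearts was that of Gstm2, a glutathione transferase, whose log2 change was 0.58 (standard error 0.109, edgeR adjusted p = 0.578) with an unadjusted p of 0.000317.

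In naive hearts 0 of 10 members passed (against 0.00% of all genes by edgeR), and 0 had an unadjusted p under 0.05 (against 3.38%). Gpx1 was higher in the 3 Vegfc-deficient than in both control libraries by a log2 change of 0.27 (-0.330 to 0.864), and Nqo1 was lower, -0.15 (-1.04 to 0.741), while 22.4% of all genes tested had no overlap in this comparison of 2 with 3. No member passed when any 1 of the 11 libraries was left out, M149 among them. Intervals were wide, from -0.878 to 0.923 for Sod2. Whether MI changed a member differently in the genotypes was tested by the interaction, which called 0 of 10 (against 0.00% of all genes by edgeR) and had 0 members with an unadjusted p under 0.05 (against 8.30%). The smallest p was again that of Gpx4, 0.0604 before and 0.609 after adjustment by edgeR, with a difference of -0.59 (-1.22 to 0.0311) on the log2 scale. A gene past the threshold in 1 genotype only, such as Gpx3, is therefore not shown to differ between them.

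**Figure D5:**
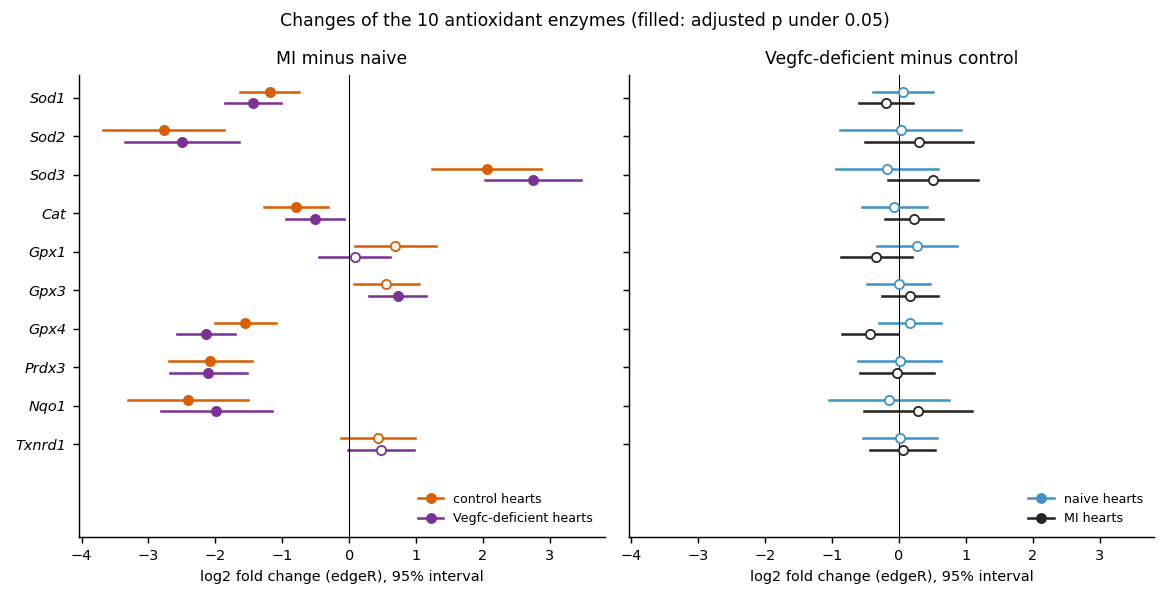
Log2 fold change (horizontal axis, edgeR) with its 95% interval for each enzyme (rows), MI against naive on the left and Vegfc-deficient against control on the right, with filled points at an adjusted p under 0.05. The MI intervals of the genotypes overlap for each of the 10 enzymes, and the genotype intervals in MI hearts cross 0 for all members but Gpx4.

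Levels were compared between genes only per length. In naive control hearts, with the longest protein-coding transcript as the length, Sod1 had the highest level, 833 ± 27.1 CPM per kilobase (SD, n = 2), followed by Gpx3 (462 ± 23.2), Prdx3 (388 ± 15.1), Gpx4 (344 ± 31.1) and Gpx1 (322 ± 15.2). Gpx4 and Gpx1 overlapped. Next came Sod2 (151 ± 22.0), then Cat (81.6 ± 7.36) and Nqo1 (75.5 ± 2.72), which overlapped, and last Txnrd1 (14.6 ± 1.33) and Sod3 (11.2 ± 1.63). In naive Vegfc-deficient hearts the order was the same but for Gpx1 and Gpx4, and the ranges of Gpx3, Prdx3, Gpx1 and Gpx4 ran into each other. After MI, Gpx3 led in both genotypes, at 679 ± 20.3 in control and 761 ± 72.0 in Vegfc-deficient hearts. Gpx1 and Sod1 came next, with overlapping ranges. In MI control hearts Nqo1 (14.1 ± 5.37), Txnrd1 (19.6 ± 3.48) and Sod2 (22.1 ± 9.38) were lowest and overlapped, and Sod3 (46.8 ± 13.3) had moved up beside Cat (46.9 ± 8.43). With merged exons as the length, Sod1 was the fifth in naive controls, at 135 ± 4.37 CPM per kilobase. Gpx3 had the highest mean in all 4 groups on that length, but its range overlapped that of Prdx3 in both naive groups.

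For each member, the 3 genes with the most similar pattern were found by Pearson's r of log2 CPM over the 11 libraries, which fall into a naive and an MI cluster, so r mostly measures that contrast. For Sod2 they were Etfdh (Pearson's r 0.998), Fitm2 (0.998) and Mdh2 (0.998), and for Prdx3 Coq7 (Pearson's r 0.999), Acat1 (0.998) and Decr1 (0.998). Those nearest to Nqo1 were Mdh1 (Pearson's r 0.997), Ogdhl (0.996) and Tnnt2 (0.996). Sod1 was nearest to Atp5e (Pearson's r 0.998), Ciao2b (0.997) and Higd2a (0.997), and Gpx4 to 2410015M20Rik (Pearson's r 0.999), Atp5e (0.998) and Ndufa7 (0.997). Several of these encode mitochondrial enzymes or respiratory chain subunits (Etfdh, Mdh2, Acat1, Decr1, Coq7, Ogdhl, Atp5e, Ndufa7), and Tnnt2 is cardiac troponin T. Cat was nearest to Slc12a7 (Pearson's r 0.991), Klhl41 (0.986) and Ppm1l (0.986). The members that were higher had other neighbours, for Sod3 Serpinh1 (Pearson's r 0.991), Magee1 (0.988) and Cd276 (0.988), of which Serpinh1 is the collagen chaperone, and for Gpx3 H2afy2 (Pearson's r 0.986), Frem1 (0.968) and Slc6a9 (0.966). Txnrd1 was nearest to Lcp1 (Pearson's r 0.952), Gusb (0.947) and Cmklr1 (0.939), of which Lcp1 is a leukocyte plastin, and Gpx1 to Ap1s1 (Pearson's r 0.94), Lgals1 (0.935) and Sec61b (0.933). The likeness was lower for Gpx1 and Txnrd1 than for the other members.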

How the data were processed

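Left ventricle mRNA of 11 mice was sequenced as stranded libraries (TruSeq Stranded mRNA). The authors deposited raw counts per Ensembl gene, 1 file per library, and the submitters' processing notes name cutadapt 1.13, STAR, HTSeq 0.6.1p1, DESeq2 1.14.1 and the build mm10. All columns of counts were used. Groups followed the genotype and treatment labels. Of 25006 gene identifiers, 24991 were matched to GENCODE M21 (GRCm38). In R 4.3.3, genes were filtered with filterByExpr (minimum count 10) and scaled by TMM, and 1 quasi-likelihood model in edgeR 4.0.16 with a term per group gave 5 comparisons, with Benjamini-Hochberg adjustment over 14779 genes. CPM was computed without a prior count, and with one of 2 on the log2 scale for likeness of patterns. Standard errors are the log2 change over the square root of F. The code was tested on simulated data.

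Alternatives were DESeq2 size factors, the DESeq2 1.42.0 Wald test, limma-voom (limma 3.58.1, sample weights), other filters and thresholds, scaling without ribosomal, haemoglobin and mitochondrial genes, removal of length or GC trends, only the compared groups, leaving out each library, and, for shares, the longest transcript. The longest protein-coding transcript was added after the data were seen. The members, lists and tests were chosen with earlier results of these data known. Besides the members and the checks Vegfc, Lyz2 and Xist, the text names, from each pathway list, up to 4 genes with the largest MI change called the same way in both genotypes, a set of fixed pathway genes, the gene with the smallest genotype p where it is given, and for each member the 3 genes of most similar pattern. Nothing in the labels says more of litters or days, so p-values measure the spread between these libraries. Intervals and the floor of 3 counts cover counting error or this spread only.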

Additional observations from a re-analysis of the deposited data

How the results depend on the processing

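Of the log2 changes of the 10 enzymes under up to 22 alternatives, 207 of 220 kept direction and side of the threshold for MI in control hearts, 200 of 220 for MI in Vegfc-deficient hearts, 208 of 220 for genotype in MI hearts, 193 of 220 for genotype in naive hearts and 192 of 210 for the interaction. Sod1, Sod2, Sod3, Gpx4, Prdx3 and Nqo1 stayed called after MI in both genotypes whichever library was left out, while the calls of Cat, Gpx1, Gpx3 and Txnrd1 moved with the library or method in at least 1 genotype. No member was called for genotype or the interaction by edgeR, DESeq2 or limma-voom. Over all genes, a threshold of 0.01 left 4798 calls for MI in control hearts, and a log2 change of at least 1 left 4550 in control and 4965 in Vegfc-deficient hearts. The DESeq2 Wald test called 51 genes for genotype in MI hearts, 14 in naive hearts and 55 for the interaction, where edgeR called 0. In naive hearts limma-voom called 6 and edgeR on only the compared groups 2. Leaving out 1 library moved these counts from 4574 (without M45) to 7636 for MI in control hearts, with 4880 without M44, from 0 to 17 (without M149) for genotype in naive hearts, and from 0 to 1 for genotype in MI hearts and for the interaction.

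No value that changed sign was called. With the length trend removed they were, on the log2 scale, 0.1762 for Prdx3 and -0.01273 for Txnrd1 for genotype in MI hearts, -0.06446 for Prdx3 in naive hearts and 0.2407 for Prdx3 and -0.04691 for Txnrd1 for the interaction. With the GC trend removed they were -0.1079 for Gpx1 for MI in Vegfc-deficient hearts, -0.06662 for Sod2 and 0.04678 for Gpx3 and -0.01242 for Prdx3 for genotype in naive hearts and -0.03809 for Txnrd1 for the interaction. In naive hearts they were also 0.03451 for Gpx3 and -0.08389 for Txnrd1 with limma-voom, -0.006706 for Prdx3 and -0.002252 for Txnrd1 with no filter on low counts and -0.005716 for Prdx3 with only the compared groups. With 1 library left out, sign changes occurred in the ranges -0.1584 to 0.2911 for Gpx1 for MI in Vegfc-deficient hearts, -0.1025 to 0.6634 for Sod2, -0.007173 to 0.3972 for Cat, -0.3016 to 0.1843 for Prdx3, -0.2186 to 0.6023 for Nqo1 and -0.1314 to 0.2334 for Txnrd1 for genotype in MI hearts, -0.03211 to 0.1319 for Sod1, -0.1229 to 0.1784 for Sod2, -0.3693 to 0.03644 for Sod3, -0.16 to 0.02169 for Cat, -0.135 to 0.1371 for Gpx3, -0.04819 to 0.1085 for Prdx3 and -0.1808 to 0.1114 for Txnrd1 for genotype in naive hearts, and -0.1239 to 0.649 for Sod2, -0.3085 to 0.1849 for Prdx3, -0.06664 to 0.7603 for Nqo1 and -0.1394 to 0.2374 for Txnrd1 for the interaction. The cause was not tested. No paired analysis was possible because each mouse has its own number and no number is shared between groups. The lowest value of a member (12.4 CPM, Nqo1 in M40) was far above the 0.363 CPM or less that a count of 3 gives. The part of depth, whose median was higher in MI than in naive libraries, was not tested.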

Other observations

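Other cell types also shifted between the libraries in which the enzymes were read. Endothelial markers summed to 6493 to 7373 CPM in the 5 naive and 1013 to 3399 CPM in the 6 MI libraries, lower in every MI library. Red cell genes, of interest because red cells are rich in catalase, Gpx1 and Prdx2, summed to 1093 to 4384 CPM in the 5 naive and 309 to 1375 CPM in the 6 MI libraries, with overlap. After MI the red cell sum was 804 to 1375 CPM in control and 309 to 654 CPM in Vegfc-deficient libraries, without overlap between the genotypes. Of all single genes tested, 12.1% had no overlap in that comparison. Of the 5 red cell genes tested, 0 passed for genotype in MI hearts (smallest edgeR adjusted p = 0.584). Smooth muscle markers summed to 1412 to 1871 CPM in the 5 naive and 1448 to 3109 CPM in the 6 MI libraries, also with overlap. T cell markers summed to 4.99 to 15.2 CPM in the 5 naive and 17.8 to 190.2 CPM in the 6 MI libraries, without overlap, and B cell markers to 5.62 to 19.4 CPM in the 5 naive and 10.7 to 30.3 CPM in the 6 MI libraries, with overlap. Adipocyte markers summed to at most 2.08 CPM in naive libraries, and the MI ranges overlapped theirs. Lung-list genes summed to 27.7 to 1698 CPM in the 5 naive and 6.50 to 33.5 CPM in the 6 MI libraries, and the highest value was that of M149. The naive controls M45 and M44 had 609 and 586 CPM, and the naive Vegfc-deficient M34 and M150 had 57.2 and 27.7 CPM. Lyz2 had the same order among the naive libraries, from M149 down to M150. The part of these cell types in the enzyme results was not tested.

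The 10 enzymes together summed to 3469.6 to 4408 CPM in the 5 naive and 2476 to 2903 CPM in the 6 MI libraries, lower in every MI library. The NADPH supply genes summed to 2862 to 3705 CPM in the 5 naive and 890.2 to 1323 CPM in the 6 MI libraries and the thioredoxin system genes to 1780.4 to 2058 CPM in the 5 naive and 909.8 to 1238 CPM in the 6 MI libraries, both without overlap, while the glutathione supply genes summed to 199 to 258 CPM in the 5 naive and 225 to 332 CPM in the 6 MI libraries, with overlap. These sums are descriptions with no test. M149, whose Lyz2 level went against its label, had over the tested genes a Pearson's r of log2 CPM of 0.975 with M44 and 0.98 with M45, the naive controls, and 0.963 with M150 and 0.966 with M34, the other naive Vegfc-deficient libraries, across genes that are not independent replicates.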
